A study of Mus musculus with 46 samples.

Results

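The miR-29 family comprises 3 mature microRNAs, mmu-miR-29a-3p, mmu-miR-29b-3p and mmu-miR-29c-3p, which were chosen by name from 1881 mouse miRNAs measured on each array. All 3 were among the 815 miRNAs analysed, and each carried the detection flag on all 45 arrays. MicroRNAs are short RNAs that guide the silencing complex to messenger RNAs, mainly through the seed near their 5′ end. The miR-29 miRNAs are known for targeting messenger RNAs of extracellular matrix proteins such as collagens, elastin and fibrillin, and loss of miR-29 in the heart is linked to fibrosis. In brain they are known to accumulate as neurons and glia mature.

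The study asked how RNA degradation alters miRNA profiles. Heart, liver and brain of male C57BL6 mice of an Il1a knock-out strain, a background shared by all groups, were cut into 8 pieces and stored for 0, 1, 3, 6, 12, 24, 48 or 96 h at 4 °C or at room temperature (RT). The age of the animals was not given in the sources used here. The arrays held 7 heart, 6 liver and 8 brain samples stored at 4 °C and 8 samples of each tissue stored at RT. At 4 °C, liver has no array at 6 h or 96 h, and heart at 0 h was left out. The study removed these arrays for low data quality. By the study's methods the heart, liver and brain came from the same animal, with a different animal at each temperature, so that 2 animals stand behind all arrays. Each tissue and temperature was on 1 slide. Within a tissue, the effects of animal, slide and temperature cannot be told apart, and no time point has a replicate. RNA integrity was given as the RIN value, which is high for intact and low for degraded RNA. It was over 6 on 33 arrays (13 heart, 6 liver and 14 brain) and 6 or lower on 12 arrays (2 heart, 8 liver and 2 brain). Tissue labels were checked on marker miRNAs. The lowest value of miR-122-5p in liver was 11.14 on the log2 scale and its highest elsewhere 7.34, and the corresponding values were 13.60 and 7.81 for miR-1a-3p in heart and 12.93 and 4.57 for miR-124-3p in brain.

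The mature sequences are shown because they define the family and show how little separates its members on a hybridisation array. They were taken from RefSeq (GRCm38.p6), where all 7 names looked up, the 3 family members and the 4 5p arms of their hairpins, were matched. Capitals mark the seed, bases 2 to 8 from the 5′ end.
mmu-miR-29a-3p: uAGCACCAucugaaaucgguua
mmu-miR-29b-3p: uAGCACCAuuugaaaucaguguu
mmu-miR-29c-3p: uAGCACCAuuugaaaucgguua
The seed was the same in all 3, and among 1679 mature names listed, 3 had it, the family members themselves. Counted from the 5′ end, mmu-miR-29a-3p and mmu-miR-29c-3p differed by the single substitution C10U. From mmu-miR-29c-3p to mmu-miR-29b-3p the substitutions were G18A, U21G and A22U, and mmu-miR-29b-3p was 1 base longer (23 against 22 bases). How far the probes for mmu-miR-29a-3p and mmu-miR-29c-3p take up each other's target was not tested.

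The family comes from 2 pairs of neighbouring hairpins. On chromosome 6, minus strand, mmu-miR-29a-3p lies at chr6:31062673-31062694 in Mir29a and the first copy of mmu-miR-29b-3p at chr6:31063025-31063047 in Mir29b-1, with 275 bases between the hairpins. On chromosome 1, plus strand, the second copy lies at chr1:195037091-195037113 in Mir29b-2 and mmu-miR-29c-3p at chr1:195037600-195037621 in Mir29c, 426 bases apart. The mature sequences of the 2 mmu-miR-29b-3p copies are the same, so the array measured their sum.

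Each family member was measured by 2 probes of 15 spots each. All 30 spots were well above background on every array, and 0 were saturated. After removal of slide means, the 2 probes correlated with r = 0.98 for mmu-miR-29a-3p and r = 1.00 for the other two across 45 arrays. Levels below are log2 values after variance stabilizing normalization (VSN), and levels of different miRNAs are not compared with each other, since probes differ in brightness.

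In RNA with RIN over 6, all 3 family members were highest in brain, lower in heart and lowest in liver. Values of mmu-miR-29a-3p were 13.31 ± 0.26 (SD, n = 14) in brain, 12.09 ± 0.25 (n = 13) in heart and 10.76 ± 0.75 (n = 6) in liver. Lowest, median and highest array were 12.94, 13.27 and 13.84 in brain, 11.67, 12.12 and 12.51 in heart, and 9.35, 11.03 and 11.29 in liver. Thus the 3 tissues did not overlap for mmu-miR-29a-3p with VSN, nor without scaling. With scaling to the 75th percentile of all miRNAs, 11 of 14 brain arrays lay above the highest heart array. Of the 13 heart arrays, 12 then lay above the highest liver array, 9 with spike-in scaling and 0 with quantile normalization. The 14 brain arrays had background-subtracted signals of 6008 to 14590 units, the 6 liver arrays 647 to 1894.

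For mmu-miR-29b-3p the levels were 13.11 ± 0.36 in brain, 11.11 ± 0.29 in heart and 10.09 ± 0.92 in liver. The brain arrays, between 12.65 and 14.10 with a median of 13.11, lay above all others. Heart (10.61 to 11.49, median 11.20) and liver (8.47 to 11.13, median 10.31) overlapped, with 9 of 13 heart arrays above the highest liver array. That count was 0 of 13 with quantile normalization or the 75th percentile of all miRNAs, and 13 of 13 without scaling. This member showed the widest gap between brain and heart.

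For mmu-miR-29c-3p the levels were 12.30 ± 0.29 in brain, 11.54 ± 0.27 in heart and 9.89 ± 0.81 in liver. Here 13 of 14 brain arrays lay above the highest heart array, the exception being brain stored for 0 h at RT at 11.86, and heart (11.05 to 11.86, median 11.59) lay entirely above liver (8.37 to 10.51, median 10.14). Non-overlap of brain with both other tissues was thus seen for 2 of 3 members, against 21.1% of all 815 miRNAs. Heart lay entirely above liver for 2 of 3, against 17.2%. Both counts hold for VSN. For mmu-miR-29c-3p, 0 of 13 heart arrays lay above the highest liver array with quantile normalization. With the 75th percentile of all miRNAs, 6 of 14 brain arrays of this member lay above the highest heart array, and with spike-in scaling all 14 did.

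**Figure D1:**
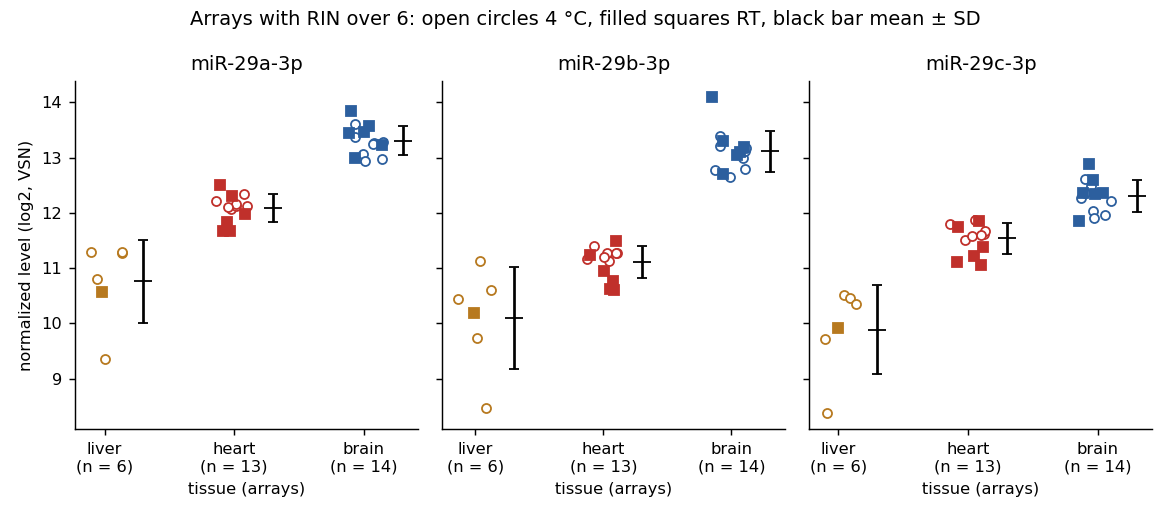
Normalized level (log2, VSN) of each family member on the 33 arrays with RIN over 6, by tissue. Each point is 1 array (open circles 4 °C, filled squares RT), and black bars give the mean ± SD. Brain lies highest for all 3, and the single liver point near 9.35 for miR-29a-3p is the 0 h sample stored at 4 °C.

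The tissue differences were tested with limma, with the slide as a random block and Benjamini-Hochberg adjustment over 815 miRNAs. Brain exceeded heart by 1.23 ± 0.16 (log2 difference ± SE) for mmu-miR-29a-3p, or 2.34-fold (adjusted p = 3.9e-08). The difference was 2.01 ± 0.20, or 4.02-fold, for mmu-miR-29b-3p (adjusted p = 4.1e-11) and 0.77 ± 0.17, or 1.70-fold, for mmu-miR-29c-3p (adjusted p = 0.00022). All 3 members were called higher in brain, where 47.1% of the 815 miRNAs were. With scaling to the 75th percentile of all miRNAs, the brain and heart difference of mmu-miR-29c-3p was 0.07 (adjusted p = 0.73).

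Against liver, brain was higher by 2.55 ± 0.20 for mmu-miR-29a-3p (5.86-fold), by 3.02 ± 0.25 for mmu-miR-29b-3p (8.11-fold) and by 2.42 ± 0.22 for mmu-miR-29c-3p (5.34-fold). The limma adjusted p-values were 2.2e-13, 3.8e-13 and 5.1e-12, and 58% of all miRNAs were called higher in brain. These 3 differences stayed positive under each of 17 alternatives.

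Heart exceeded liver by 1.32 ± 0.21 for mmu-miR-29a-3p (2.50-fold, adjusted p = 1.6e-06), by 1.01 ± 0.25 for mmu-miR-29b-3p (2.02-fold, adjusted p = 0.00096) and by 1.65 ± 0.22 for mmu-miR-29c-3p (3.13-fold, adjusted p = 9.7e-08). The share of all miRNAs called higher in heart was 44.8%. The order of heart and liver depended on the scaling for 2 of the 3. With quantile normalization the difference was -0.28 for mmu-miR-29a-3p (adjusted p = 0.068) and -0.58 for mmu-miR-29b-3p (adjusted p = 0.0082). With all 46 arrays the difference of mmu-miR-29b-3p was 0.74 (adjusted p = 0.079). Since 2 animals gave all tissues, these p-values measure mainly the spread between pieces of the same organ. With the animal as a further block, all 9 tissue differences remained called, each within its standard error of the value given above.

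Within each animal the order was the same. In the animal stored at 4 °C, mean levels in brain, heart and liver were 13.22, 12.16 and 10.80 for mmu-miR-29a-3p, 13.02, 11.25 and 10.08 for mmu-miR-29b-3p and 12.23, 11.66 and 9.88 for mmu-miR-29c-3p (8, 7 and 5 intact arrays). In the animal stored at RT they were 13.43, 12.00 and 10.57, then 13.24, 10.95 and 10.18, and then 12.40, 11.39 and 9.92 (6, 6 and 1 intact arrays). Each member was thus highest in brain and lowest in liver in both animals. In whole tissue, fewer cells of a type cannot be told apart from less RNA per cell. Blood miRNAs also differed between tissues. In intact RNA the mean of miR-451a was 13.42 in heart, 9.83 in liver and 9.64 in brain, and the other 2 blood miRNAs, miR-144-3p and miR-486a-5p, were likewise highest in heart. On the intact arrays the mean of the 3 ranged from 9.76 to 12.06 in heart, 5.40 to 7.52 in liver and 5.90 to 7.56 in brain. Their part in the family's levels was not tested.

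Within single arrays, the balance of the family differed between tissues. The log2 difference of mmu-miR-29b-3p minus mmu-miR-29a-3p was -0.98 ± 0.08 (SD, n = 13) in intact heart and -0.20 ± 0.15 (n = 14) in intact brain. It ranged from -1.08 to -0.84 in heart and from -0.38 to 0.26 in brain, so that the tissues did not overlap. Since the probes differ in brightness, only the change of this difference between tissues can be read, which favoured mmu-miR-29b-3p in brain. For mmu-miR-29c-3p minus mmu-miR-29a-3p the values were -0.55 ± 0.07 in heart and -1.01 ± 0.10 in brain, again without overlap (-0.67 to -0.43 against -1.14 to -0.80). In intact liver the first difference was -0.67 ± 0.34 and the second -0.87 ± 0.15 (n = 6), between or overlapping those of the other tissues. These differences were chosen after their values were seen and are given without a test. The share of other miRNA pairs that separate heart and brain in this way was not determined. Of all 815 single miRNAs, 69% were called between intact brain and heart.

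The 5p arms of the hairpins, usually the less abundant strand, were weak. The flag of detection was set on 43 of 45 arrays for miR-29c-5p, 38 for miR-29a-5p, 35 for miR-29b-1-5p and 1 for miR-29b-2-5p, which did not reach the minimum of 5 arrays. In intact brain, signals of miR-29c-5p ranged from 58.5 to 258 units. In intact heart the median signal was only 2.95 units for miR-29a-5p and 1.42 units for miR-29b-1-5p. All 3 arms analysed were higher in brain than in heart by limma, by 1.44 ± 0.19 for miR-29c-5p, 1.08 ± 0.19 for miR-29a-5p and 1.21 ± 0.18 for miR-29b-1-5p (adjusted p = 2.0e-08, 7.7e-06 and 3.5e-07). Brain was also above liver for all 3, by 3.28 ± 0.23, 1.56 ± 0.24 and 1.46 ± 0.22 (limma, adjusted p at most 5.9e-07). Of all 815 miRNAs, 47.1% were called higher in brain than in heart and 58% higher in brain than in liver. The difference of heart and liver passed the test for miR-29c-5p (1.84 ± 0.23, adjusted p = 3.7e-08) and not for miR-29a-5p (0.48 ± 0.24, adjusted p = 0.088) or miR-29b-1-5p (0.25 ± 0.23, adjusted p = 0.35). Both of these were detected on only 2 of 6 intact liver arrays. After removal of slide means, miR-29c-5p followed mmu-miR-29c-3p with r = 0.95 across 45 arrays. For miR-29a-5p with mmu-miR-29a-3p r was 0.78, and for miR-29b-1-5p with mmu-miR-29b-3p 0.79.

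To determine whether the family changed with RNA integrity, levels were first correlated with RIN over all 45 arrays. Pearson's r was 0.47 for mmu-miR-29a-3p, 0.48 for mmu-miR-29b-3p and 0.48 for mmu-miR-29c-3p (permutation p = 0.0013, 0.0010 and 0.0015, or 0.020 for each after adjustment over 54 relations of the family with RIN or hours). The parametric Pearson test across all 815 miRNAs gave adjusted p = 0.0020, 0.0015 and 0.0017. By this test all 3 were called, as were 74% of all miRNAs, and 33.7% were called with a positive r. With the tissue as a block 1 of 3 was called, and with the slide as a block, without scaling or with spike-in scaling 0 of 3 were called. Spearman's rho was lower, at 0.23, 0.22 and 0.27 (permutation p = 0.12, 0.15 and 0.071). Leaving out the 2 arrays whose RIN lay farthest from the median gave r of 0.36, 0.37 and 0.37. Of the 12 arrays with low RIN 8 were from liver, the tissue with the lowest levels in intact RNA, so that tissue and integrity were not separated in the pooled r.

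Within tissues no correlation passed adjustment. In heart r was 0.62, 0.59 and 0.66 for mmu-miR-29a-3p, mmu-miR-29b-3p and mmu-miR-29c-3p (n = 15, permutation p = 0.049, 0.055 and 0.030), in brain 0.59, 0.65 and 0.64 (n = 16, p = 0.022, 0.020 and 0.013 by permutation) and in liver 0.18, 0.29 and 0.15 (n = 14, p = 0.52, 0.31 and 0.61 by permutation). Benjamini-Hochberg adjustment over the 54 relations gave permutation p of 0.10 to 0.68. In heart and brain, r rested on the 2 most degraded arrays. Without them it was between -0.07 and 0.01 in heart and between -0.16 and -0.11 in brain. Spearman's rho lay between 0.08 and 0.28 in all 3 tissues. On single slides r ranged from 0.39 to 0.74 for brain and liver at RT and brain at 4 °C, and from -0.71 to -0.59 for liver at 4 °C, where the only degraded array was the highest (exact permutation p of 0.035 to 0.35 over these 12 values).

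**Figure D2:**
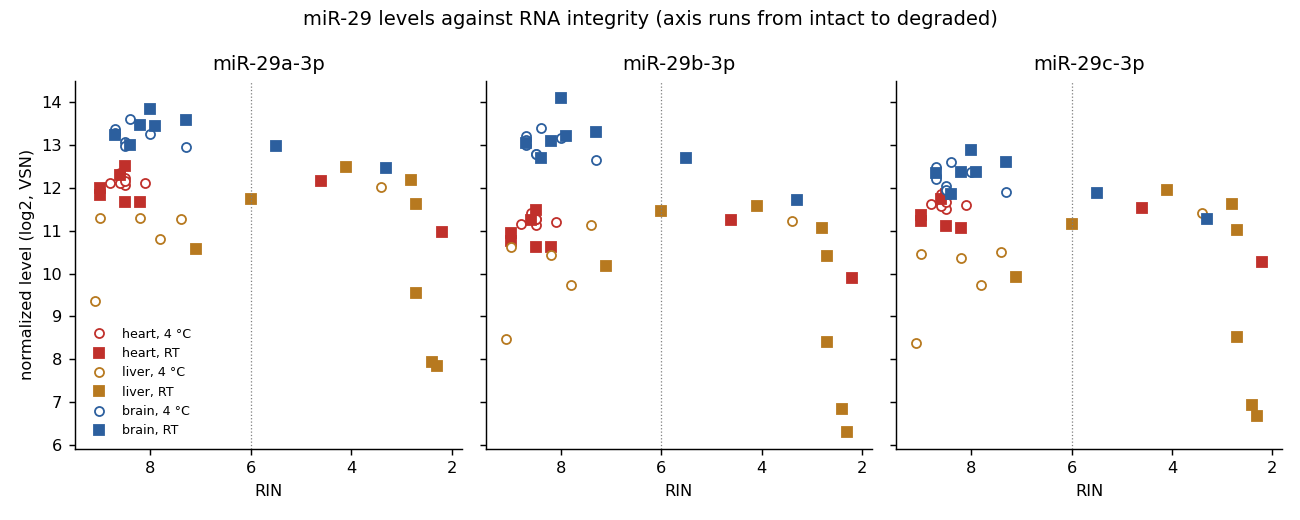
Normalized level (log2, VSN) of each family member against RIN, with the axis running from intact to degraded RNA. Each point is 1 array, colours give the tissue, open circles 4 °C and filled squares RT. Heart and brain arrays at RIN 4.6 and 5.5 lie within the range of intact RNA, whereas liver arrays lie both above and below it at low RIN.

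With tissue-specific slopes and the slide as a block (limma, 45 arrays), the change per RIN unit in heart was 0.11 ± 0.13 for mmu-miR-29a-3p, 0.10 ± 0.15 for mmu-miR-29b-3p and 0.12 ± 0.15 for mmu-miR-29c-3p (adjusted p = 0.52, 0.58 and 0.52). In brain the slopes were 0.17 ± 0.18, 0.26 ± 0.20 and 0.20 ± 0.20 (adjusted p = 0.41, 0.26 and 0.39), and in liver 0.07 ± 0.13, 0.17 ± 0.15 and 0.07 ± 0.15 (adjusted p = 0.66, 0.31 and 0.67). None of the 9 slopes passed the test, with 0 below an unadjusted p of 0.05, while 48%, 39.4% and 53.6% of all miRNAs were called in heart, brain and liver. All tissues shared an estimate of spread for each miRNA in this fit. The standard errors for heart and brain thus include the wide spread of the liver arrays. When the 48 h liver sample kept at 4 °C (RIN 3.4) was omitted, mmu-miR-29b-3p was called in liver, with a slope of 0.49 (adjusted p = 0.016), as were 628 of all 815 miRNAs.

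Slopes did not differ detectably between tissues either. The 9 differences ranged from -0.07 ± 0.21 (mmu-miR-29b-3p, heart minus liver) to 0.16 ± 0.25 log2 units per RIN unit (mmu-miR-29b-3p, brain minus heart), with limma adjusted p-values of 0.97 and 1.00. The shares of all miRNAs called were 1.35% for heart minus liver, 1.23% for brain minus liver and 0% for brain minus heart. The standard errors of 0.19 to 0.25 leave room for differences as large as the slopes themselves.

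In liver at RT the levels did not follow RIN or time in one direction. In order of storage time, from 0 to 96 h, the levels of mmu-miR-29a-3p were 10.57, 11.74, 12.48, 12.18, 11.61, 9.54, 7.93 and 7.85. RIN values over this course were 7.1, 6.0, 4.1, 2.8, 2.7, 2.7, 2.4 and 2.3. The level was highest at 3 h, when RIN had already dropped to 4.1, and the 2 longest times were the lowest of all 45 arrays. The unscaled signal was 791 units at 0 h, with its highest value of 6086 units after 6 h and its lowest of 390 units after 48 h.

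Levels of mmu-miR-29b-3p were 10.18, 11.45, 11.58, 11.06, 10.41, 8.41, 6.83 and 6.30 from 0 to 96 h in liver at RT. Those of mmu-miR-29c-3p were 9.92, 11.15, 11.95, 11.61, 11.02, 8.52, 6.93 and 6.68. With VSN, all 3 family members were thus highest at 3 h and lowest at 96 h. The unscaled signals of all 3 were highest at 6 h and lowest at 48 h. With quantile normalization mmu-miR-29b-3p was highest at 1 h. From 0 to 3 h the differences with VSN were 1.91, 1.40 and 2.04 for mmu-miR-29a-3p, mmu-miR-29b-3p and mmu-miR-29c-3p, where the median of all 815 miRNAs was 0.85 and that of the 180 miRNAs detected on every array 1.05. From 3 to 96 h they were -4.64, -5.28 and -5.28, or 24.9-fold, 38.9-fold and 38.7-fold lower, where the medians were 0.26 over all miRNAs and -2.08 over those detected on every array. Each of these is a difference of 2 arrays without a test. The mean of the 3 blood miRNAs moved alongside, from 7.15 after 6 h to 3.47 after 96 h, and the number of detected miRNAs was 310 at 0 h and 726 after 96 h. Their part in the family's course was not tested.

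Liver at 4 °C took another course. For mmu-miR-29a-3p the 6 values, at 0, 1, 3, 12, 24 and 48 h, were 9.35, 11.27, 11.29, 11.29, 10.80 and 12.01. The 48 h sample, degraded to RIN 3.4, was the highest and the intact 0 h sample (RIN 9.1) the lowest, for mmu-miR-29b-3p (11.23 and 8.47) and mmu-miR-29c-3p (11.42 and 8.37) too. The 0 h array also had the fewest detected miRNAs, 268, of all 45 arrays, and the median difference from 0 to 48 h of the miRNAs detected on every array was 2.08, beside 2.66, 2.76 and 3.05 for the family. With scaling to the 75th percentile of the miRNAs detected on all arrays the family's differences were 0.45, 0.56 and 0.85.

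**Figure D3:**
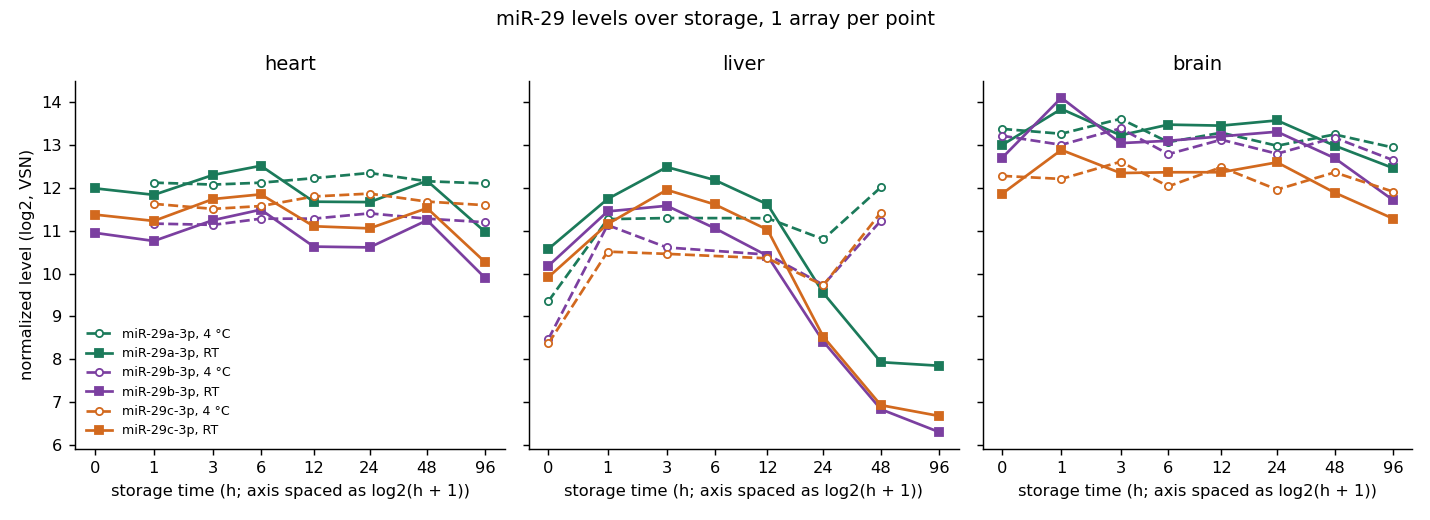
Normalized level (log2, VSN) of the 3 family members against storage time, 1 panel per tissue and 1 array per point. Solid lines with squares are RT, dashed lines with open circles 4 °C. In liver at RT the levels are highest at 3 h, and those at 96 h are lower by 4.64 to 5.28 log2 units, while in heart and brain at RT the 96 h values are the lowest.

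The degraded liver samples therefore lay on both sides of the intact ones. Of the 8 liver arrays with RIN of 6 or lower, 5 were above the highest and 2 below the lowest of the 6 intact arrays for mmu-miR-29a-3p and also for mmu-miR-29c-3p. For mmu-miR-29b-3p 3 were above and 3 below. At least 2 above and 2 below were found for 149 of all 815 miRNAs (18.3%) and for 71 of the 180 detected on every array. The means of degraded and intact arrays differed by -0.09 (mmu-miR-29a-3p, 10.67 against 10.76), -0.43 (mmu-miR-29b-3p, 9.66 against 10.09) and 0.02 (mmu-miR-29c-3p, 9.91 against 9.89). The exact 2-sided Wilcoxon-Mann-Whitney test gave p = 0.41, 0.85 and 0.41 (adjusted p = 0.60, 0.94 and 0.60), and 27.7% of all miRNAs were called. The spread within the degraded liver arrays, with SDs of 1.93, 2.16 and 2.19, was far larger than these differences of means.

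In heart at RT, mmu-miR-29a-3p lay between 11.67 and 12.51 up to 24 h, and was 12.16 after 48 h (RIN 4.6) and 10.96 after 96 h (RIN 2.2). The 48 h value lay within the range of the intact arrays, and only the 96 h value lay below it. The same held for mmu-miR-29b-3p (11.24 at 48 h, 9.89 at 96 h) and mmu-miR-29c-3p (11.53 and 10.26). Degraded minus intact heart differed by -0.52 ± 0.67, -0.54 ± 0.76 and -0.65 ± 0.75 by limma (2 against 13 arrays, adjusted p = 0.56, 0.60 and 0.53), where 42.5% of all miRNAs were called. In this fit all tissues shared an estimate of spread for each miRNA, the degraded liver arrays included. The standard errors thus do not describe heart alone, where the 13 intact arrays had SDs of 0.25, 0.29 and 0.27. A missing call is therefore not a result about heart alone. In heart at 4 °C, 7 arrays from 1 to 96 h spanned no more than 12.08 to 12.35, 11.14 to 11.40 and 11.51 to 11.86 for the 3 members.

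In brain at RT, mmu-miR-29a-3p was highest after 1 h, at 13.84, and was 13.57 after 24 h, 12.98 after 48 h (RIN 5.5) and 12.46 after 96 h (RIN 3.3). Again the 48 h sample lay within the range of the intact arrays and the 96 h sample below it. For mmu-miR-29b-3p these 2 values were 12.69 and 11.72, and for mmu-miR-29c-3p 11.89 and 11.28. Degraded minus intact brain differed by -0.59 ± 0.67, -0.91 ± 0.76 and -0.72 ± 0.74 (limma, 2 against 14 arrays, adjusted p = 0.47, 0.34 and 0.43), where 22.5% of all miRNAs were called. These standard errors came from the same shared spread, liver included. The 14 intact brain arrays themselves had SDs of 0.26, 0.36 and 0.29. Unlike the normalized values, the unscaled signal at 96 h (12611 units for mmu-miR-29a-3p) exceeded that at 0 h (6008 units).

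Hours of storage at RT correlated with lower levels over the 24 arrays of all tissues. Pearson's r was -0.45 for mmu-miR-29a-3p, -0.46 for mmu-miR-29b-3p and -0.51 for mmu-miR-29c-3p (permutation p = 0.025, 0.025 and 0.015), which did not pass adjustment over the 54 relations (adjusted permutation p = 0.10 for each). The parametric Pearson test across all miRNAs gave adjusted p = 0.0496, 0.047 and 0.026, and by it all 3 were called beside 53.9% of all miRNAs in either direction and 17.7% with a negative r. Spearman's rho of -0.28, -0.29 and -0.32 had permutation p = 0.18, 0.17 and 0.13. Without the 2 arrays farthest from the median time, r was -0.20, -0.19 and -0.28. The calls depended on the liver sample of 96 h, without which 0 of 3 members were called, and 1 of 3 was called when any of 14 other arrays was left out (heart at 0, 3, 6, 12, 24 and 96 h, liver at 1, 3 and 48 h, brain at 0, 1, 3, 6 and 12 h).

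Within tissues at RT, Pearson's r passed adjustment over the family's 54 relations in liver and Spearman's rho did not. There r was -0.85, -0.90 and -0.86 for mmu-miR-29a-3p, mmu-miR-29b-3p and mmu-miR-29c-3p (n = 8, exact permutation p = 0.0039, 0.0011 and 0.0029; adjusted over the 54 relations, 0.035, 0.020 and 0.031). Spearman's rho was -0.69, -0.74 and -0.69 (exact p = 0.069, 0.046 and 0.069; 0.51 for each after adjustment). The share of all miRNAs with such an r in liver alone was not determined. From 0 to 96 h in liver the family's differences were -2.73, -3.88 and -3.24. The median was -0.75 over miRNAs detected on every array and 0.74 over all miRNAs. In heart r was -0.70, -0.66 and -0.75 (n = 8, exact p = 0.065, 0.081 and 0.057), and in brain -0.76, -0.78 and -0.76 (n = 8, exact p = 0.030, 0.027 and 0.029), none of which passed adjustment. Without the 2 arrays farthest from the median time, r was -0.63, -0.83 and -0.67 in liver, -0.50, -0.49 and -0.52 in heart, and 0.29, 0.02 and 0.28 in brain.

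At 4 °C no relation with storage time was detected. Over 21 arrays r was 0.13, 0.09 and 0.17 (permutation p = 0.56, 0.69 and 0.46), 0 of 3 members was called, and 5.28% of all miRNAs were called. Spearman's rho was 0.02, 0.10 and 0.07 (permutation p = 0.93, 0.67 and 0.75). Within tissues r was between -0.09 and 0.02 in heart, between 0.39 and 0.58 in liver and between -0.59 and -0.48 in brain (exact permutation p of 0.13 or more). The lowest exact p for Spearman's rho was 0.046, for mmu-miR-29a-3p in brain (rho = -0.74), or 0.51 after adjustment. Of the 5p arms, 3 of 3 were called in the pooled RIN comparison, with r of 0.53 to 0.55. There 74% of all miRNAs were called, 33.7% with a positive r, and tissue and integrity were not separated. In the RT comparison miR-29b-1-5p was called (r = -0.49, adjusted p = 0.031), whereas miR-29a-5p (r = -0.42, adjusted p = 0.070) and miR-29c-5p (r = -0.38, adjusted p = 0.11) did not pass. By this parametric Pearson test 53.9% of all miRNAs were called, 17.7% with a negative r.

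The difference between 96 h and 0 h at RT depended on how arrays were scaled to each other. With VSN it was -1.02 in heart, -2.73 in liver and -0.54 in brain for mmu-miR-29a-3p (log2). Left unscaled, the differences were 0.30, -0.44 and 1.07. With scaling to spike-in control probes, whose own signals varied 5.89-fold to 34.3-fold between arrays, they were 0.35, 0.65 and 1.19. The median of all miRNAs moved too, to 1.44, 2.55 and 1.59 unscaled, from 0.18, 0.74 and 0.10 with VSN, and the family lay below that median in each case. The direction between 0 and 96 h was thus not settled for heart and brain in any of the 3 members, nor for mmu-miR-29a-3p and mmu-miR-29c-3p in liver (0.13 for the latter with spike-in scaling). The lower level in liver at 96 h than at 3 h kept its direction under all scalings, from -2.17 to -5.53 for mmu-miR-29a-3p, from -2.82 to -6.18 for mmu-miR-29b-3p and from -2.81 to -6.18 for mmu-miR-29c-3p. So did the higher level at 3 h than at 0 h in liver, from 0.79 to 2.82, 0.14 to 2.31 and 0.84 to 2.94.

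**Figure D4:**
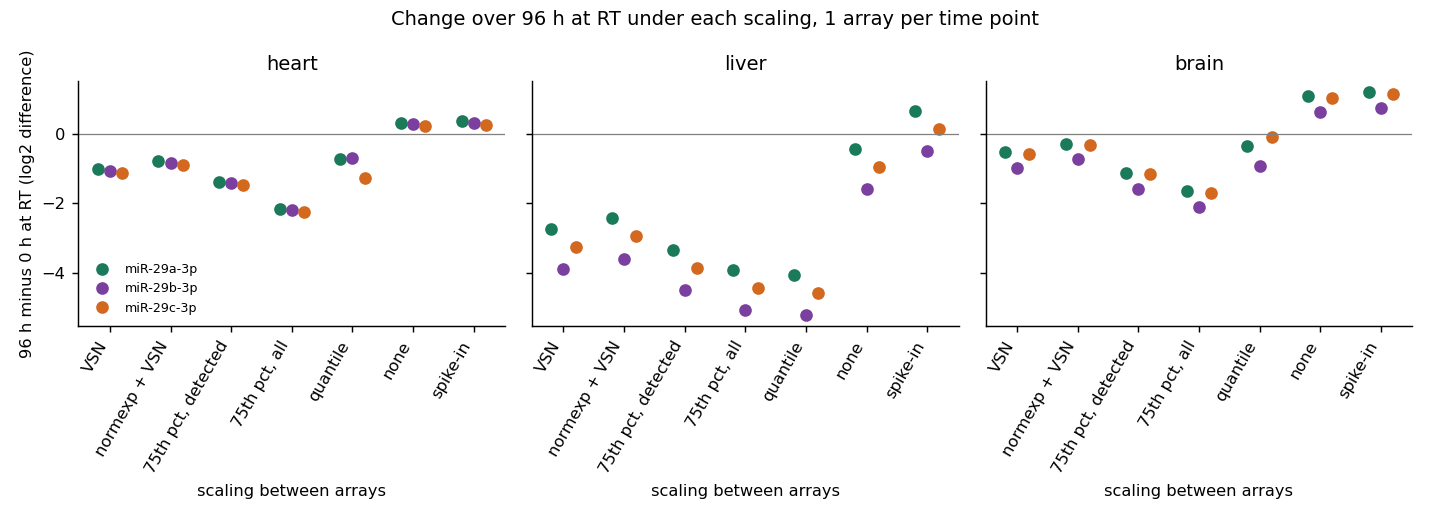
Difference of the array at 96 h minus the array at 0 h at RT (log2), for each family member under 7 scalings between arrays, 1 panel per tissue. Without scaling, and with spike-in scaling, heart and brain lie above 0, and liver lies between -1.60 and 0.65 instead of -3.88 and -2.73 with VSN.

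Differences within an array hardly depend on scaling, quantile normalization apart, so they were used to compare the members with each other. The difference of mmu-miR-29b-3p minus mmu-miR-29a-3p changed by 0.060 ± 0.021 log2 units per RIN unit over 45 arrays with the slide as a block (permutation within slides, p = 0.014, adjusted over 3 pairs p = 0.034). For mmu-miR-29b-3p minus mmu-miR-29c-3p the slope was 0.046 ± 0.018 (permutation p = 0.023, adjusted p = 0.034). The pair of mmu-miR-29c-3p and mmu-miR-29a-3p, which differ by 1 base, had a slope of 0.014 ± 0.013 (permutation p = 0.34). How common such slopes are among pairs of other miRNAs was not determined. Slopes of single miRNAs on RIN were called for 48%, 39.4% and 53.6% of all 815 in heart, brain and liver.

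By tissue, the slope of mmu-miR-29b-3p minus mmu-miR-29a-3p was 0.106 ± 0.050 in liver, 0.093 ± 0.032 in brain and -0.0055 ± 0.0072 in heart. For mmu-miR-29b-3p minus mmu-miR-29c-3p it was 0.100 ± 0.038, 0.064 ± 0.029 and -0.019 ± 0.0098. Thus mmu-miR-29b-3p was lower relative to the others at low RIN in liver and brain, whereas the heart slopes were at or below 0. In liver the difference was -0.67 ± 0.34 (SD, n = 6) in intact and -1.01 ± 0.37 (n = 8) in degraded RNA, and its lowest value was -1.55 at 96 h at RT. In brain the 96 h sample at RT had -0.75, below all 14 intact brain arrays (-0.38 to 0.26), and in heart it had -1.07, within the range of the intact arrays. Whether the slope differed between tissues was not tested. Omitting any of the liver samples of 0 h and 1 h or the brain sample of 96 h, all at RT, left 0 of 3 pairs called, and with quantile normalization 0 of 3 were called. With the first probe of each member alone, the slope against mmu-miR-29a-3p was 0.037 (adjusted permutation p = 0.13) and with the second 0.071 (adjusted permutation p = 0.013).

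**Figure D5:**
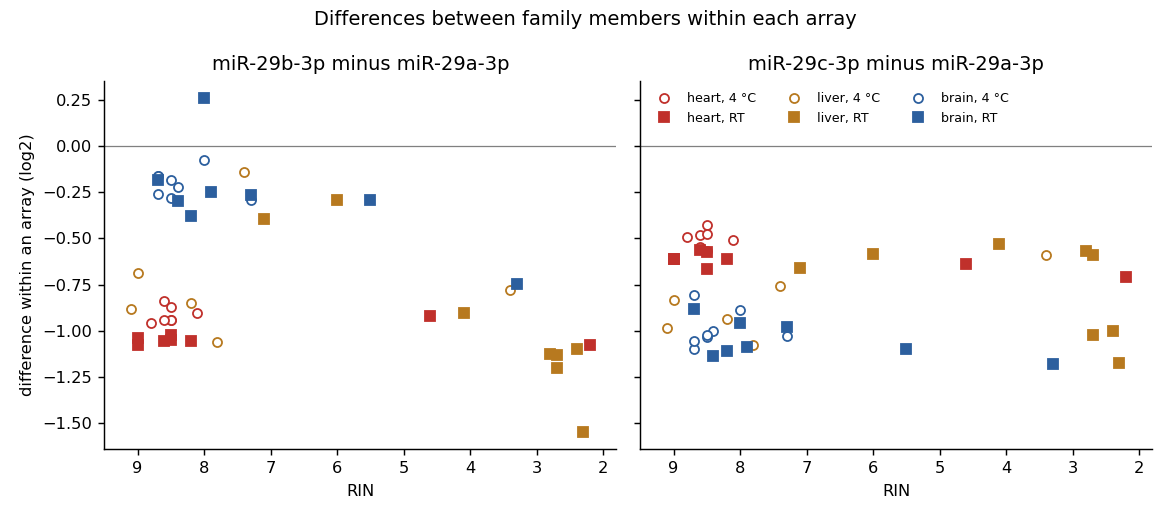
Log2 difference of mmu-miR-29b-3p minus mmu-miR-29a-3p (left) and mmu-miR-29c-3p minus mmu-miR-29a-3p (right) on each of 45 arrays against RIN. Colours give the tissue, open circles 4 °C and filled squares RT. On the left, liver and brain points lie lower at low RIN, down to -1.55 in liver, while heart lies between -1.08 and -0.84.

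The miRNAs whose pattern was most like that of the family were found among 177 others detected on all 45 arrays. After removal of slide means, the highest correlations with the mean of the 3 members were those of miR-30e-5p (r = 0.99), miR-126a-5p (0.98), miR-30a-5p (0.98), miR-101a-3p (0.98) and let-7i-5p (0.98). Without removal of slide means they were those of miR-98-5p (0.98), let-7c-5p (0.98) and let-7b-5p (0.97). Such values were common, since 69 of the 177 miRNAs had r over 0.9 within slides (median 0.58), and all points of an array share its RNA, hybridisation and scaling. Among the members themselves r within slides was 0.98 for mmu-miR-29a-3p and mmu-miR-29b-3p, 1.00 for mmu-miR-29a-3p and mmu-miR-29c-3p, and 0.98 for mmu-miR-29b-3p and mmu-miR-29c-3p.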

How the data were processed

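Total RNA of 46 mouse tissue samples was hybridised to 1-colour Agilent miRNA arrays with 30 spots per miRNA. The authors deposited the scanner output of Feature Extraction, background-subtracted intensity values per spot and per miRNA with detection flags, together with log2 values after VSN in R. Detection flags were taken as deposited. In keeping with the study's methods, the 0 h heart sample kept at 4 °C was omitted, leaving 45 arrays. VSN was refitted here on these arrays. The same fit over 46 arrays differed from the deposited log2 table by at most 0.00166. Of the deposited miRNAs, 815 detected on at least 5 arrays were analysed. The number of arrays limits the precision.

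Pearson and Spearman correlations (parametric p across all miRNAs; for the members also 100000 permutations, exact for up to 8 arrays), the exact Wilcoxon-Mann-Whitney test (8 against 6 liver arrays) and limma 3.58.1 in R 4.3.3 were used with Benjamini-Hochberg adjustment over all 815 miRNAs, threshold 0.05. Tissue-specific slopes and tissue contrasts used limma, the latter with the slide as a random block. In each limma fit all tissues shared an estimate of spread for each miRNA. Alternatives were other scalings (75th percentiles, quantile, none, spike-in, normexp), each probe alone, other detection filters, all 46 arrays, tissue or slide blocks, Spearman's rho, Bonferroni adjustment, subsets of RIN or time, leaving out each array and, chosen after seeing the data, the animal as a block. Fits were run on simulated data with less noise than the members showed in liver, which leaves their performance on the liver arrays untested. Hours follow the labels (12 h, where the methods name another time). Normexp used the spot median signal, since the files used here hold no spot mean. Spike-in scaling used 7 control probes named dmr, a choice made after the control signals were seen. That each of these is a spike-in is not stated in the sources used here.

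The named miRNAs were the 3 members, the 4 5p arms, the 5 miRNAs closest to the members' mean within slides and the 3 closest over all arrays. The members and lists were chosen with earlier results of these data known.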

Additional observations from a re-analysis of the deposited data

Results flagged for a closer look

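The heart array of 0 h at 4 °C, which the study removed for low array quality, entered only the alternative with all 46 arrays. It still gave a signal for all 3 family members. Its RNA had RIN 8.8, yet the array carried the detection flag for 215 miRNAs, beside 374 to 683 on the other heart arrays. After VSN over 46 arrays its values were 8.27 for mmu-miR-29a-3p, 7.39 for mmu-miR-29b-3p and 7.79 for mmu-miR-29c-3p, beside 11.01 to 12.55, 9.94 to 11.52 and 10.30 to 11.90 on the other 15 heart arrays. Before normalization the signal of mmu-miR-29a-3p was 987 units against 3110 to 7949. All 3 were detected and all lay below every other heart array.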

How the results depend on the processing

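The labels number every sample as replicate 1. The tissues share an animal at each temperature, and with the animal as a block, an alternative chosen after seeing the data, all 9 tissue differences in intact RNA were called. They were also called in 9 of 9 cases whichever array was left out. Lost calls were those of mmu-miR-29b-3p between heart and liver with all 46 arrays (adjusted p = 0.079) and with Bonferroni adjustment (0.22), of mmu-miR-29c-3p between brain and heart with Bonferroni adjustment (0.084) and with the 75th percentile of all miRNAs (0.73), and of mmu-miR-29a-3p between heart and liver with quantile normalization (0.068). With quantile normalization, mmu-miR-29a-3p (-0.28) and mmu-miR-29b-3p (-0.58) were lower in heart than in liver, and the cause was not tested. The 3 calls for RIN over all tissues became 0 with no scaling, with spike-in scaling, with Bonferroni adjustment, with a slide block, with Spearman's rho and with RIN above 6 only, and 1 with a tissue block, and stayed at 3 without any one array. With RIN above 6 only, r was -0.072, -0.17 and -0.023 for mmu-miR-29a-3p, mmu-miR-29b-3p and mmu-miR-29c-3p. The 3 calls for hours at RT became 0 with no scaling, spike-in scaling, Bonferroni adjustment, log2 of hours and storage up to 24 h, and 1 with normexp and with detection on 10 or more arrays, and lay between 0 and 3 without any one array. The slope in liver was called for 1 member instead of 0 with quantile normalization and with the 75th percentile of miRNAs detected on all arrays, and for 0 or 1 without any one array. Unequal change was called for 0 pairs instead of 2 with quantile normalization and for 1 with the first probe alone, and for 0 to 2 without any one array. The counts of members called for slopes in heart and brain, slopes between tissues, hours at 4 °C and degraded against intact tissue stayed at 0 throughout. Counts over all miRNAs that moved by more than 1.5 times did so mostly without a detection filter (more called) and with Bonferroni adjustment (fewer). Without the filter all 1881 miRNAs were tested instead of 815. The higher counts that follow are therefore out of more miRNAs and do not show a higher share called. The 603 calls for RIN over all tissues became 0 to 1223, the slopes in heart, liver and brain 131 to 907 from 391, 200 to 907 from 437 and 49 to 700 from 321, hours at RT 53 to 1005 from 439 and hours at 4 °C 8 to 95 from 43. Slopes between tissues moved from 11, 10 and 0 to 0 to 56, 4 to 132 and 2 to 92, mostly with other scalings. Degraded against intact RNA moved to 0 to 485 from 226 in liver, 62 to 836 from 346 in heart and 14 to 420 from 183 in brain, and the tissue contrasts to 357 to 1093 from 562 (brain and heart), 392 to 1243 from 592 (brain and liver) and 144 to 199 from 441 (heart and liver). Degraded heart and brain rest on 2 arrays each, of 1 animal, and no time point has a replicate, which limits all storage results.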
